A study of Caligus rogercresseyi with 6 samples.

Results

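The chalimus library of the sea louse Caligus rogercresseyi was compared with the copepodid library, across the step at which the larva settles on its salmon host. RNA-seq had been run on 6 samples of wild-type whole animals taken from farmed Atlantic salmon, and 2 of the 6 enter this comparison: 1 pool of chalimi and 1 pool of copepodids. The labels give neither the number of animals in a pool nor the chalimus instar or the copepodids' age. Whether the pooled copepodids had already settled could not be checked here. Eggs, adult females and adult males, again 1 pool each, serve below only as further levels. A file labelled adult with no sex holds exactly the summed female and male total, a difference of 0 counts. It entered nothing but the scaling factors, and leaving it out of them gave the same numbers of calls. Contigs, the assembled transcript fragments listed by the authors, entered when they had 50 or more counts in either library, which admitted 29177 of 44089. Those with 0 counts in one of the tables are described apart.

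Free-swimming copepodids of sea lice do not feed and live on reserves until they find a fish. After attaching they moult to the chalimus, which is held to the host by a frontal filament and grazes on its skin and mucus. In arthropods generally, a moult and the onset of feeding are known for renewed synthesis of cuticle and of digestive enzymes. No gene name or sequence accompanies the identifiers in the files used here, so the contigs are described by identifier, length and level, and the stage labels could not be checked against marker genes or against salmon transcripts.

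The chalimus library held 116318842 counts and the copepodid library 78380827. With 1 pool per stage no difference below has a replicate check, no p-value is possible, and intervals cover counting error only. The widest 95% Wilson interval of a share of library counts was 0.00909 percentage points on either side in chalimus and 0.0111 in copepodid. A count of 0 allows 3 counts, which is 0.0258 CPM (counts scaled to the library total) in chalimus and 0.0383 CPM in copepodid. In pools of whole animals, fewer cells of a type and less RNA per cell cannot be told apart.

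The 29177 contigs fell into 3 sets. Counts were present in both tables for 19393 contigs (66.5%), and these took up 97.1% of the chalimus library and 95.3% of the copepodid library. Another 3330 contigs (11.4%) had 50 or more counts in chalimus and 0 in copepodid, and they held 2.80% of the chalimus library. The remaining 6454 (22.1%) had 50 or more counts in copepodid and 0 in chalimus, and they held 4.67% of the copepodid library. Of the 21283 contigs with 50 or more chalimus counts, 3330 had 0 copepodid counts, 168 had 1, 117 had 2, 545 had 3 to 9 and 2090 had 10 to 49. Of 22927 contigs with 50 or more copepodid counts, 6454 had 0 chalimus counts, 74 had 1, 73 had 2, 313 had 3 to 9 and 980 had 10 to 49. In both directions a count of 0 was thus far more frequent than a count of 1 or 2. For the same 21283 chalimus contigs, egg had 0 counts for 325, adult female for 321 and adult male for 148. At the edge of the admission rule, 83 contigs had exactly 50 counts in their higher library and 79 had exactly 49.

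**Figure D1:**
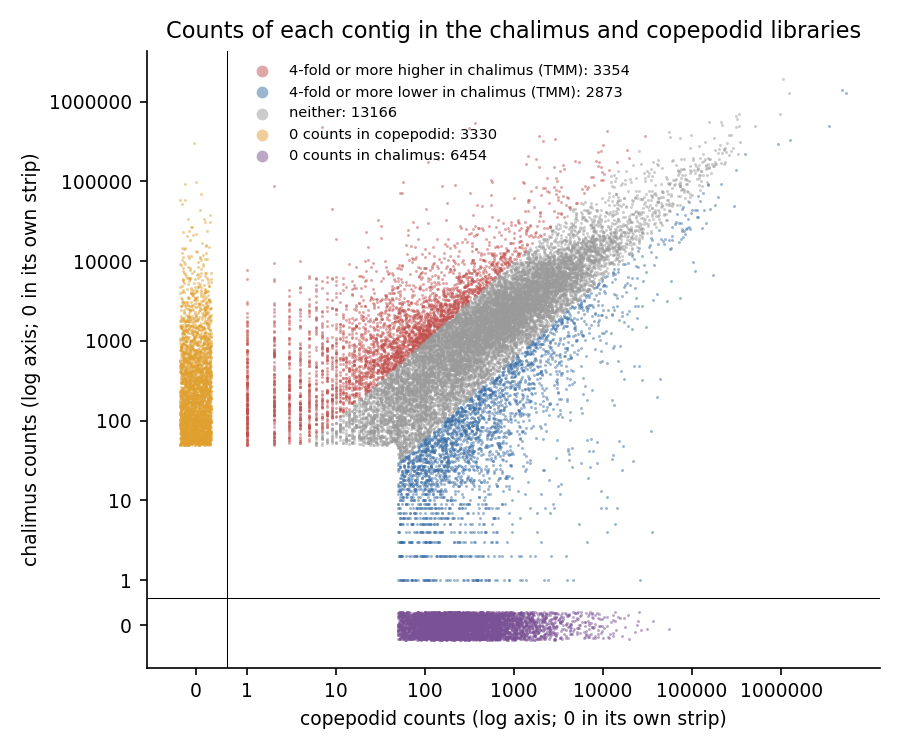
Chalimus counts (vertical, log axis) against copepodid counts (horizontal, log axis) for the 29177 contigs, each a point, with 0 counts drawn in a strip of its own and spread at random within it. The 19393 contigs counted in both tables form a diagonal band, and the strips of 3330 and 6454 contigs with 0 counts hold far more contigs than the points at 1 and 2 counts.

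For the contigs counted in both tables, the number of differences in each direction depended on the scaling. A contig was called higher or lower at a ratio of at least 4-fold with 50 or more counts in the higher library. With TMM (trimmed mean of M-values) scaling, 3354 contigs were higher in chalimus (17.3% of those tested) and 2873 were lower (14.8%). With total counts, 5160 were higher (26.6%) and 2051 lower (10.6%), so contigs higher in chalimus made up 53.9% of the calls with TMM and 71.6% with total counts. The median log2 ratio of chalimus over copepodid in this set was 0.13 with TMM and 0.85 with total counts, a shift of 0.73. This change of scaling moves all ratios in the same direction, by somewhat less where a count is low. By construction the higher contigs with TMM are therefore among those with total counts. Among the 15033 contigs with 50 or more counts in both tables, the median log2 ratio was 0.01 with TMM, and 1558 were higher (10.4%) and 1506 lower (10%). With total counts 2968 of them were higher (19.7%) and 822 lower (5.47%). Over all 29177 contigs, zeros included, the median log2 ratio was -0.23 with TMM and 0.50 with total counts, so its direction depended on the scaling. Of these contigs, 6684 were higher (22.9%) and 9327 lower (32%) with TMM, and 8490 and 8505 (29.1% each) with total counts. Without the contigs counted in copepodid alone, described below, 6684 were higher and 3067 lower with TMM, so the balance depended on them.

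Ratios of 16-fold or more were a minority of the calls among contigs counted in both tables. With TMM, 2267 of the 3354 higher contigs and 1748 of the 2873 lower ones lay between 4-fold and 16-fold. Ratios of 256-fold or more were seen for 79 higher contigs, which held 2.56% of the chalimus counts, and for 117 lower ones, which held 0.683% of the copepodid counts. With total counts this order turned round, with 138 higher and 81 lower contigs at 256-fold or more. Just inside the threshold, 584 higher and 409 lower contigs lay between 4-fold and 5-fold, and just outside it 937 and 728 contigs with enough counts lay between 3-fold and 4-fold. Ratios within 2-fold covered 42.8% of the 19393 contigs with TMM and 36.4% with total counts.

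**Figure D2:**
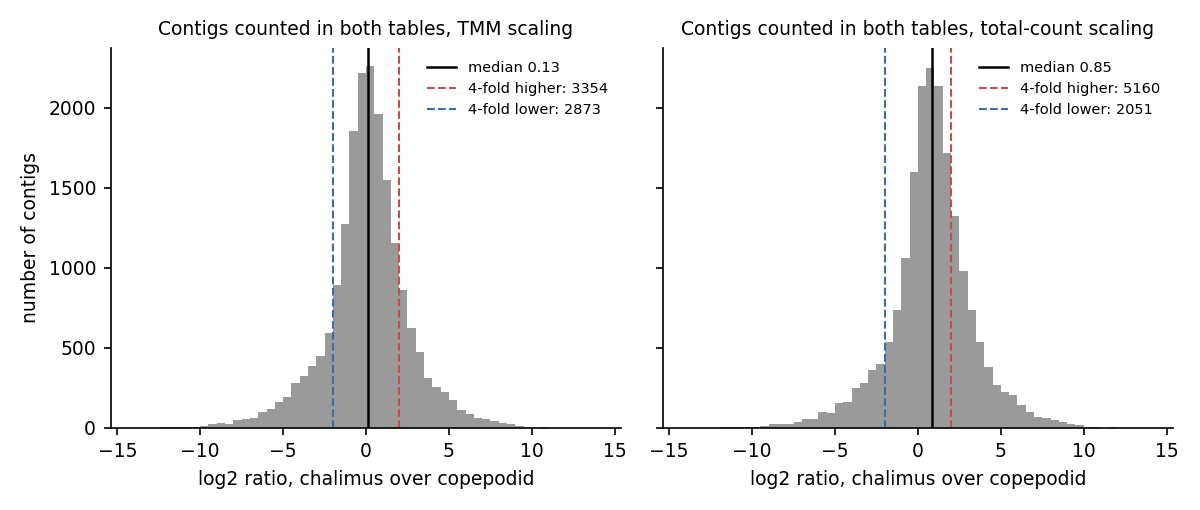
Distribution of the log2 ratio of chalimus over copepodid for the 19393 contigs counted in both tables, with TMM scaling (left) and total-count scaling (right), in bins of 0.5 (vertical axis: number of contigs). The solid line is the median, 0.13 and 0.85, and the dashed lines mark 4-fold, past which 3354 and 2873 contigs lie with TMM and 5160 and 2051 with total counts.

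The change in library composition was spread widely on the chalimus side and narrow on the copepodid side. Summing the differences in CPM, 43.3% of the library was redistributed between chalimus and copepodid. For the gain in chalimus, 346 contigs were needed to reach 50% of it, and the 10 largest gains, of 2849 to 4648 CPM each, made up 8.06%. For the loss, 25 contigs reached 50%, and the 10 largest losses, of 2818 to 57783 CPM each, made up 44.0%. A single contig of 2576 nt carried 13.3% of the loss, while the largest single gain, of a contig of 590 nt, was 1.07% of the gain. The copepodid library was itself concentrated, with 25.7% of its counts in its 10 most abundant contigs, against 8.37% in chalimus. Its side was also narrow against the other stages. There 50% was reached with 50 contigs against adult female, 55 against adult male and 29 against egg. Contigs counted in both tables provided 93.4% of the gain and 89.1% of the loss. The contigs with 0 counts in one table provided 6.46% of the gain and 10.8% of the loss. Against the same chalimus library, adult male redistributed 31.7%, adult female 43.1% and egg 41.0%.

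Contigs higher in chalimus and counted in both tables had a median of 10.3 CPM in chalimus and 0.549 CPM in copepodid. Per length, their median level was 5.48 FPKM (a level per contig length and library total, as deposited by the authors) in chalimus and 0.275 FPKM in copepodid. With 50 or more counts in both libraries, the largest ratio belonged to GAZX01039400 (6034 nt). It had 26 counts in egg, 88 in copepodid, 417621 in chalimus, 6072564 in adult female and 520 in adult male. Its level was 3590 CPM in chalimus, against 1.12 CPM in copepodid, and 40639 CPM in adult female, so the male library stood apart from the chalimus and female libraries. The TMM ratio of chalimus over copepodid was 1931-fold (95% exact interval 1567 to 2408), and 3198-fold with total counts. The next ratio belonged to GAZX01028734 (739 nt), with 65 counts in egg, 57 in copepodid, 97654 in chalimus, 76151 in adult female and 111450 in adult male. This contig was low in egg and copepodid and similar in the 3 other libraries. It stood at 840 CPM in chalimus, with 510 CPM in the female pool and 856 CPM in the male pool. Its TMM ratio was 697-fold (538 to 921), and 1154-fold with total counts. In FPKM, GAZX01028734 stood at 1135 and GAZX01039400 at 595 in chalimus, so per length the shorter contig had the higher level.

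Egg, adult female and adult male entered the calls only through the TMM factors, and with factors from chalimus and copepodid alone 3399 contigs were higher and 2842 lower. The 3354 higher contigs held 28.6% of the adult female counts, 20.8% of the adult male counts and 4.97% of the egg counts. Without the 10 most abundant of them in each library, these shares were 13.9%, 14.7% and 4.28%. In chalimus itself they held 19.2%, and 15.8% without the 10 most abundant, so the order of chalimus and the adults depended on those contigs. In copepodid they held 1.07%. The median higher contig was at 8.10 CPM in females and 6.19 CPM in males, near the 7.95 and 5.998 CPM of all contigs counted in both tables. In egg it was at 5.61 CPM, against 9.63 CPM for all of them. Detection was near that of the whole set: 10 or more counts were present for 96.3% in females, 96.3% in males and 96.8% in egg, where 94.6%, 94.3% and 97.3% of all contigs counted in both tables had them. Of the 3264 with 50 or more counts in egg or either sex, 431 (13.2%) were at least 4-fold higher in both sexes than in egg, where 6.28% of all contigs tested were, and 131 (4.01%) were at least 4-fold higher in egg than in both sexes, where 8.7% of all were. With total counts the corresponding shares were 11.2% and 5.36%, where 5.17% and 10.7% of all contigs tested were.

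Contigs lower in chalimus and counted in both tables had a median of 0.481 CPM in chalimus and 4.29 CPM in copepodid, or 0.503 and 4.50 FPKM. The 2873 contigs made up 6.24% of the chalimus library and 34.2% of the copepodid library, and 2.39% and 12.1% without the 10 most abundant in each library. With 50 or more counts in both, the smallest ratios belonged to a pair of contigs of the same recovered length, 539 nt. GAZX01018470 had 8169 counts in egg, 34153 in copepodid, 74 in chalimus, 45 in adult female and 14 in adult male. GAZX01005941 had 5296 in egg, 15203 in copepodid, 56 in chalimus, 38 in adult female and 0 in adult male. Both were high in egg, highest in copepodid and low from chalimus on. GAZX01018470 was at 0.636 CPM in chalimus, against 436 CPM in copepodid, 1134-fold lower with TMM (903 to 1445) and 685-fold lower with total counts. GAZX01005941 was at 0.481 CPM in chalimus, against 194 CPM in copepodid, 667-fold lower with TMM (513 to 884) and 403-fold lower with total counts.

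Among egg, adult female and adult male, egg gave these contigs the largest share. They held 15.4% of the egg counts, 4.46% of the adult female counts and 5.99% of the adult male counts, and without the 10 most abundant in each library 7.27%, 1.97% and 2.17%. Of the 2237 with 50 or more counts in egg or either sex, 958 (42.8%) were at least 4-fold higher in egg than in both sexes, against 8.7% of all contigs tested and 4.86% of the contigs neither higher nor lower in chalimus. Only 42 (1.88%) were at least 4-fold higher in both sexes than in egg. Counted separately, 1265 of 2180 (58.0%) were higher in egg than in adult female, where 18.1% of all contigs were, and 111 (5.09%) were lower, where 13% of all were. Against adult male, 1163 of 2175 (53.5%) were higher in egg and 141 (6.48%) lower, where 16.4% and 17% of all were. With total counts the shares higher in egg were 62.2% and 58.7%, where 20.7% and 22.4% of all were. The adult female against adult male contrast, which uses neither larval library nor egg, gave 356 of 1636 (21.8%) higher in female and 281 (17.2%) lower, where 15.6% and 16.8% of all contigs tested were. The lower contigs were also shorter, with a median of 954 nt, against 1807 nt for the higher ones, and the part of length in these shares was not tested.

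**Figure D3:**
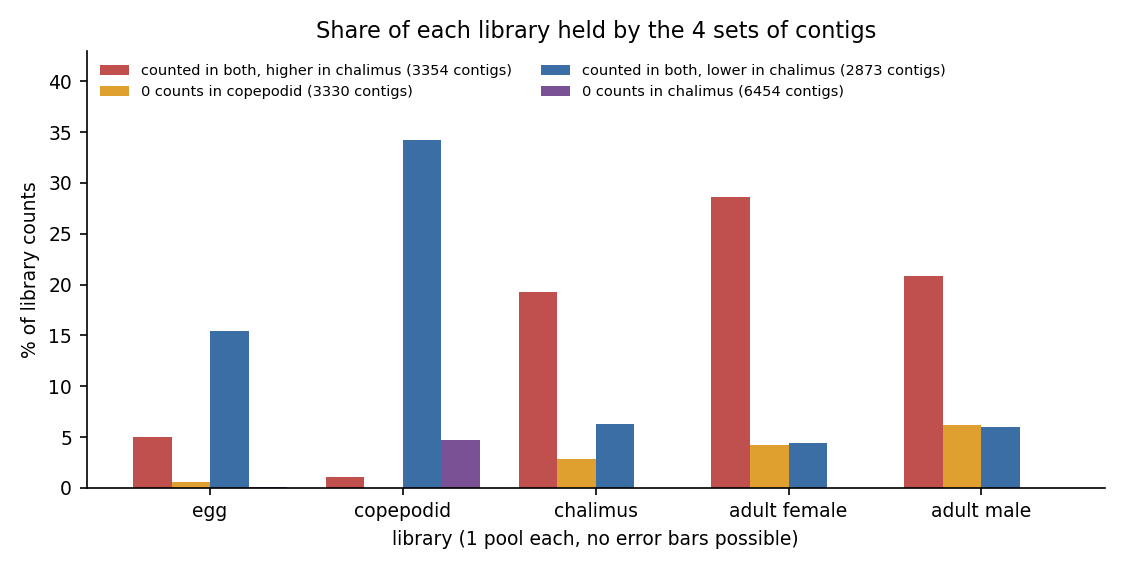
Percentage of each library's counts held by the contigs counted in both tables and higher (3354) or lower (2873) in chalimus with TMM, and by those with 0 counts in copepodid (3330) or in chalimus (6454); 1 pool per library. The bars of the higher contigs are tallest in adult female (28.6%) and adult male (20.8%), with 19.2% in chalimus, and those of the lower contigs in copepodid (34.2%) and egg (15.4%). The order of the first 3 changes without the 10 most abundant contigs in each library.

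The 3330 contigs with 0 counts in the copepodid table were mostly at modest level in chalimus, with a median of 1.59 CPM (185 counts) with 0.473 CPM at the 5th and 26.1 CPM at the 95th percentile. As lower bounds against 3 copepodid counts, and at the lowest of 3 scalings, all were at least 6.55-fold higher in chalimus, with a median bound of 24.2-fold. The bounds hold only if no copepodid counts of these contigs are missing from the table, and 1.08% of the total behind the copepodid FPKM, 852548 counts, is not in its count column, against 0.0837% for chalimus. The share with 0 copepodid counts was 42.5% among contigs with 50 to 99 chalimus counts, 21.7% at 100 to 999, 4.98% at 1000 to 9999 and 2.55% (44 of 1724) at 10000 or more. In that highest class only 3 contigs had 1 to 9 copepodid counts.

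Of the 3330 contigs, 2232 (67.0%) had 10 or more counts in all 3 of egg, adult female and adult male, below the 91.4% of contigs counted in both tables. The share of all contigs tested was 68.4%, but it is lowered by construction. It includes 6260 contigs counted in copepodid alone, with 0 counts in those 3 libraries. Taken singly, adult male had 10 or more counts for 2991 of the 3330, adult female for 2693 and egg for 2531, and 152 had them nowhere else. A further 647 (19.4%) were counted in an adult but not in egg, compared with 3.06% of all contigs tested and 1.25% of contigs counted in both tables. As a set they held 6.21% of the adult male counts, 4.19% of the adult female counts and 0.623% of the egg counts, and without the 10 most abundant in each library 3.46%, 2.54% and 0.578%. Higher levels in both sexes than in egg, by at least 4-fold, were seen for 425 of 2930 (14.5%), against 6.28% of all contigs tested. Between the sexes, 842 of 2753 (30.6%) were lower in adult female than in adult male and 497 (18.1%) higher, where 16.8% and 15.6% of all contigs tested were. Restricted to the 2232 counted in all 3 other stages, the shares were 20.2% lower and 18.1% higher in female. A contig nearly absent from 1 sex counts as lower there by construction.

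The 2 most abundant contigs of this set were near 0 in egg and abundant in both sexes. GAZX01006047 (635 nt) had 71 counts in egg, 0 in copepodid, 307741 in chalimus, 1105652 in adult female and 1560614 in adult male. Per length this contig reached 4163 FPKM in chalimus, 11644 in adult female and 18867 in adult male. GAZX01012036 (1325 nt) had 2 counts in egg, 0 in copepodid, 98800 in chalimus, 141913 in adult female and 215059 in adult male, or 641 FPKM in chalimus. Both therefore stood at or near 0 in the egg and copepodid libraries and high in the 3 others. Their scaled levels in chalimus were at least 40321-fold and 12945-fold higher than 3 counts would give in copepodid.

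Of the 6454 contigs with 0 counts in the chalimus table, 6260 had 0 counts in egg, adult female and adult male too. These contigs of copepodid alone had a median of 2.91 CPM in copepodid (228 counts) and a median length of 304.5 nt, and 87.1% were shorter than 500 nt. Per length their median was 9.37 FPKM, above the 4.50 FPKM of the contigs counted in both tables and lower in chalimus. In CPM the order was reversed, since those contigs had a median of 4.29 CPM in copepodid. They were also longer, with a median of 954 nt. The count minimum sets a higher floor in FPKM for shorter contigs, so the order in FPKM cannot show a higher level. No contig dominated them, since the 10 most abundant held 7.12% of their counts, and 630 had 1000 or more counts. The other 194 contigs were counted elsewhere, but only 42 of them had 10 or more counts in any other library: egg counted 40 at that level, adult female 19 and adult male 2. The 194 made up 0.226% of the copepodid library and the 42 made up 0.0864%, most of it in GAZX01021855 (888 nt). This contig had 44750 counts in egg, 55370 in copepodid, 0 in chalimus, 476 in adult female and 3 in adult male. Its scaled copepodid level was at least 27390-fold higher than 3 counts would give in chalimus. The next, GAZX01019747 (602 nt), had 26 counts in egg, 2774 in copepodid and 0 in chalimus, adult female and adult male. Against 3 chalimus counts, its scaled copepodid level was at least 1372-fold higher. Both were counted in egg and copepodid, the first at 417 FPKM in egg and 787 FPKM in copepodid, and the second almost only in copepodid.

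**Figure D4:**
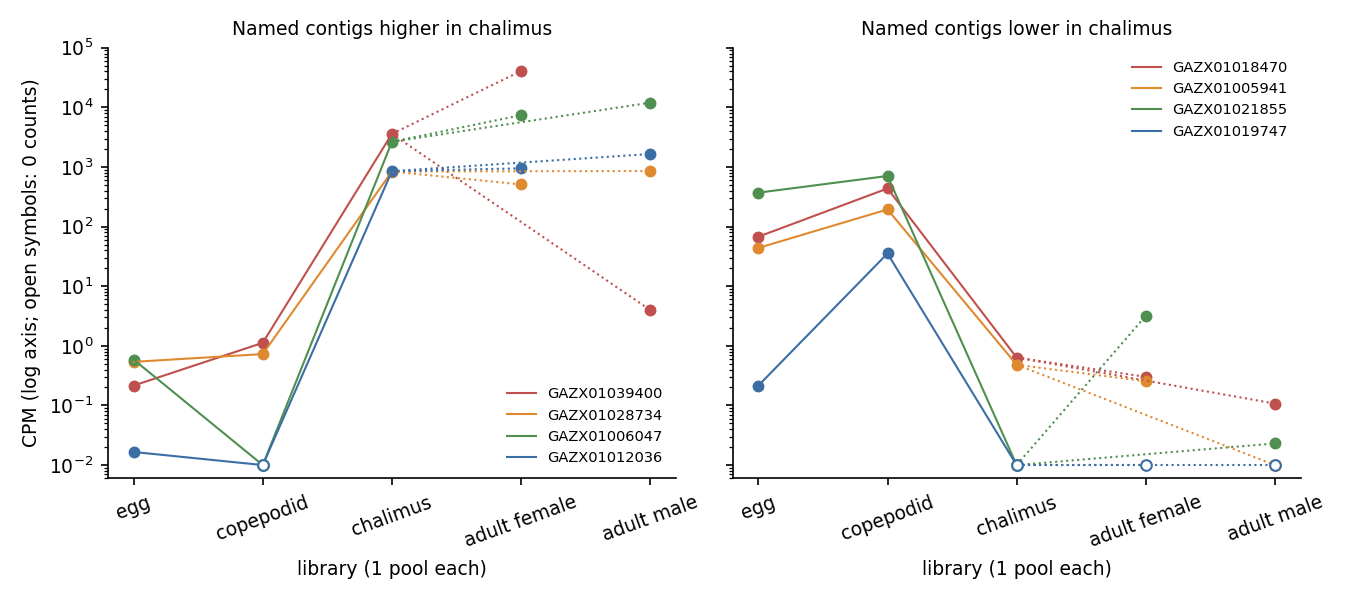
Level in CPM (log axis) of the 8 named contigs in each library, 1 pool per point, joined by solid lines up to chalimus and by dotted lines from chalimus to each sex; open symbols mark 0 counts. The 4 contigs higher in chalimus (left) are at or below 1.12 CPM in egg and copepodid and from 840 to 3590 CPM in chalimus, and GAZX01039400 alone is low in adult male; the 4 lower in chalimus (right) are at or below 0.636 CPM in chalimus.

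Contig length moved with the direction of the difference. Among contigs counted in both tables, 45.5% of those of 300 to 499 nt were lower in chalimus and 10.6% were higher, whereas at 2000 to 3999 nt 7.37% were lower and 21.1% higher. The median log2 ratio with TMM was -1.64 at 300 to 499 nt, 0.15 at 1000 to 1999 nt and 0.59 at 4000 nt or longer. With total counts the same order held for the lower contigs, at 35.7% and 4.03% in the 2 length classes. The contigs of copepodid alone made up 94.5% of all contigs tested of 200 to 299 nt and 0.0996% of those of 2000 to 3999 nt. The contigs with 0 counts in copepodid were most frequent at 500 to 999 nt, at 20.7% of all contigs tested. At 300 to 499 nt the share was 9.77%, but there the contigs of copepodid alone made up 62.9% of all contigs tested. The position of this peak therefore depends on them. Level was also associated with the direction. Among contigs counted in both tables, 43.8% of those with a mean under 1 CPM over the 5 libraries were lower in chalimus and 11.0% higher, while between 10 and 30 CPM 6.18% were lower and 19.0% higher. The part of length and of level in the differences was not tested. The mean level includes the chalimus and copepodid counts that make the call. Near the count minimum, a call of higher leaves room for fewer copepodid counts than a call of lower leaves for chalimus counts. The chalimus library was the larger, and contigs with 0 counts in either table were left out of these shares. The shares at low level therefore cannot separate level from the count rule.

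**Figure D5:**
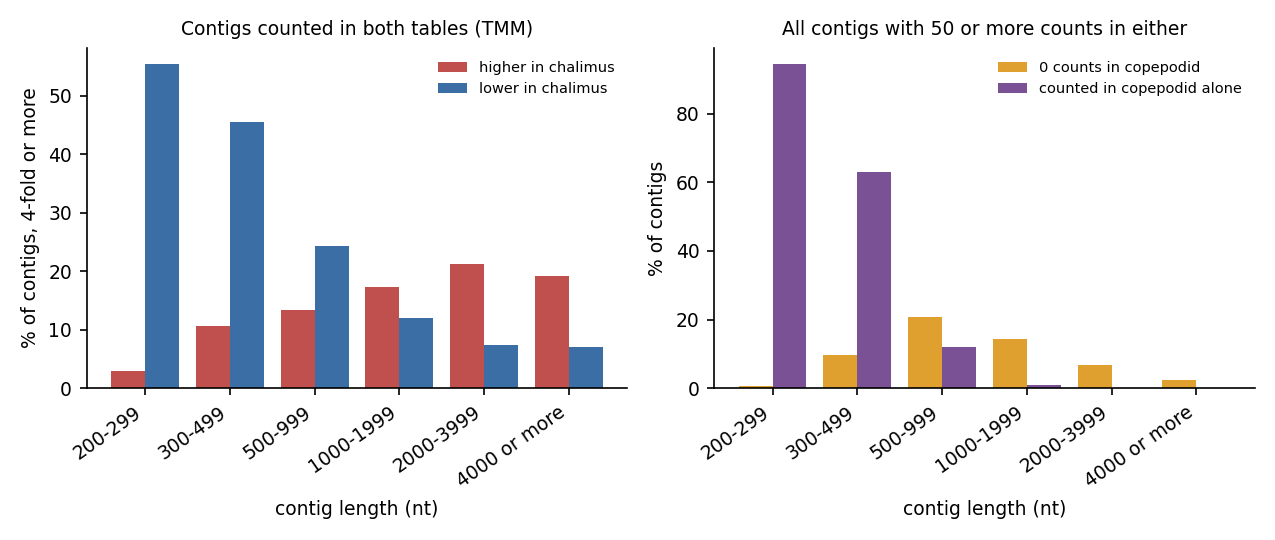
Percentage of contigs by length class (nt): left, contigs counted in both tables that were at least 4-fold higher or lower in chalimus with TMM; right, contigs with 0 counts in copepodid or counted in copepodid alone, among all 29177. Lower contigs fall with length, from 55.4% at 200 to 299 nt to 7.09% at 4000 nt or more, and contigs of copepodid alone nearly vanish above 1000 nt.

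Contigs with consecutive identifiers tended to differ in the same direction. Among 14025 pairs of neighbouring identifiers counted in both tables, both were higher in chalimus in 776, both lower in 579 and opposite in 435. Of the higher contigs with a tested neighbour, the next identifier was also higher in 29.6% (776 of 2622), whereas 17.3% of all contigs in this set were. At a distance of 20 identifiers the share was 17.1% (367 of 2150). For lower contigs it was 32.9% (579 of 1758) for the next identifier and 14.5% (222 of 1529) at a distance of 20, where 14.8% of all were. Consecutive identifiers may be fragments or isoforms of 1 transcript, which the files do not say, so the numbers of contigs above are not numbers of genes.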

How the data were processed

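Whole-animal RNA was extracted in Trizol with column clean-up and made into standard Illumina libraries, per the labels' protocols. The aligner, counter and assembler were not given in the sources used here. The count column, as deposited by the authors, holds raw whole numbers per contig. The FPKM column, also from the authors per the file headers, corrects for contig length and library total and has 3 decimals. Lengths were recovered by dividing counts by FPKM: above 300 FPKM they came out whole within 0.05 nt for 100% of 279 to 454 contigs per file, and are approximate at low FPKM.

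TMM factors were computed with edgeR 4.0.16 in R 4.3.3 from all 6 files, and total-count scaling is given beside them. Log2 ratios carry a prior of 0.5 counts, scaled to library size. Calls needed a 4-fold ratio and 50 counts in the higher library. Ratios have exact Clopper-Pearson 95% intervals, and folds against 0 counts are bounds at 3 counts per library, the lowest of TMM, total-count and DESeq2 1.42.0 scaling. CPM are counts over the library total. The code for calls and intervals was checked on simulated Poisson counts with total-count scaling. That check had no TMM step and no variation between pools. With 1 library per stage there is no test. The named contigs were the 2 highest and 2 lowest ratios with 50 or more counts in both libraries, the 2 with most chalimus counts among those with 0 in copepodid, and the 2 with most copepodid counts among those with 0 in chalimus and 10 or more in egg, adult female or adult male. The contigs, groups of contigs and rules were chosen with earlier results of these data known. Identifiers could not be paired with gene names, so no gene list was applied.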

Additional observations from a re-analysis of the deposited data

Results flagged for a closer look

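The total behind the copepodid FPKM was larger than the sum of its count column by 852548 counts, 1.08% of that total, which is a signal outside the counts compared above. The same difference was 97429 counts in chalimus (0.0837%), 180324 in egg, 104031 in adult female and 44574 in adult male. Which contigs these counts belong to was not tested.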

How the results depend on the processing

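No paired analysis was possible because each stage has 1 library and the groups share only 1 replicate number. Scaling changed the direction of the median log2 ratio over all contigs, which was -0.23 with TMM and 0.50 with total counts, and moved that of contigs counted in both tables to 0.85. It moved the higher contigs in that set to 5160, while TMM over 2 or 5 files, TMM on contigs of both, DESeq2 factors and scaling to a median ratio of 1, the last chosen after seeing the data, moved no count by over 1.5 times. With a 2-fold rule, contigs counted in both numbered 6055 higher and 5030 lower, and with 8-fold 1868 and 1831. With 50 or more counts in both tables, chosen after seeing the data, they were 1558 and 1506. Over all contigs, a minimum of 1 count gave 11865 higher, and a minimum of 200 gave 5410 lower (1827 among those counted in both). Over all contigs of 500 nt or longer, 6176 were higher and 3239 lower, and without the contigs of copepodid alone 6684 and 3067. In both cases the higher contigs outnumbered the lower ones, the reverse of the 6684 and 9327 of the whole comparison with TMM. Contigs with 0 in copepodid numbered 6253 at a minimum of 10 and 1598 at 200. Contigs with 0 in chalimus were 3583 at a minimum of 200 and 867 at 500 nt or longer. In these cases fewer or more contigs are admitted by construction. All 8 named contigs kept their direction under total counts, DESeq2 factors and TMM over 2 files. They were chosen for extreme ratios or counts of 0, so these changes of scaling could not have reversed them. Depth limits what a count of 0 can show, most of all in copepodid.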
